A study of Mus musculus with 24 samples.

Results

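CD8 single-positive (SP8) thymocytes were compared with CD4/CD8 double-positive (DP) thymocytes, which covers the step at which a double-positive cell is selected on MHC class I and keeps CD8. The members were chosen by array title alone: 3 arrays titled SP8 (13, 14 and 15) and 3 arrays titled DP (2, 3 and 3A), 6 of the 24 arrays in the series. Both groups came from the thymus of mice labelled +/-, heterozygous for Foxn1, the transcription factor of thymic epithelium; the source label calls this thymus wild-type, and so does the text below. CD4 single-positive cells (SP4, arrays 10, 11 and 12) and CD4/CD8-negative stage 3 cells (DN3, arrays 7, 8 and 9) of the same genotype served for reference. The cell type label of the SP4 arrays also names SP8, so that group rests on the array titles. Neither strain, sex nor age is used here, and nothing in the labels ties the arrays of a group to different animals; the p-values therefore reflect how these arrays scatter, a spread that may be technical. DP 3 and DP 3A share a title number and may be repeats of 1 sample; they correlated at 0.948, against 0.948 and 0.943 for the other DP pairs, so they were no closer to each other and were kept as 2 arrays.

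DP thymocytes rearrange the T cell receptor alpha locus with the recombinase genes Rag1 and Rag2, and die unless their receptor binds self-peptide on MHC. Positive selection ends recombination, and cells selected on MHC class I switch off Cd4 under Runx3, while cells selected on MHC class II keep Cd4 under Zbtb7b (ThPOK) and Gata3. Maturing single-positive cells regain the IL-7 receptor and acquire egress and homing genes such as Klf2, S1pr1 and Ccr7 before they leave the thymus. In bulk samples, fewer cells of a type and less RNA per cell cannot be told apart.

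Each array measured cDNA amplified from sorted, directly lysed cells, labelled with Cy3, with 55681 probes. Levels below are log2 of the processed signal relative to the 75th percentile of the array, so that 0 is that percentile and a difference of 1 is a doubling. Between 87.4% and 96.6% of spots were well above background on the 6 arrays. SP8 15 stood apart from the others: it had the lowest share, 87.4%, and correlated with the other 5 arrays at 0.917 to 0.927, while the pairs without it correlated at 0.943 to 0.955. It also had the lowest array weight of the 6, 0.626, against 1.21 to 2.06. All DP arrays lay on slide 2 and all SP8 arrays on slide 3, so slide and cell type cannot be told apart between them; DN3 7 was on slide 2 with DP, and DN3 8 and 9 were on slide 3 with SP8.

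No gene passed the test. Of 33552 genes tested with limma on all 24 arrays, 0 (0%) had a Benjamini-Hochberg adjusted p under 0.05 for SP8 minus DP, and the smallest adjusted p was 0.9999. At an unadjusted p under 0.05 there were 725 genes, 348 higher in SP8 (1.04%) and 377 lower (1.12%), together fewer than the 5% that an even spread of p-values gives. The median size of the difference was 0.21, below the median SE of 0.40. Within groups the median SD was 0.34 in SP8 and 0.27 in DP. The spread was estimated over all 8 groups; in a fit on the 6 arrays alone, 1726 genes had an unadjusted p under 0.05 and still 0 passed. Everything that follows is therefore a description of measured levels, none of which passed the test.

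**Figure D1:**
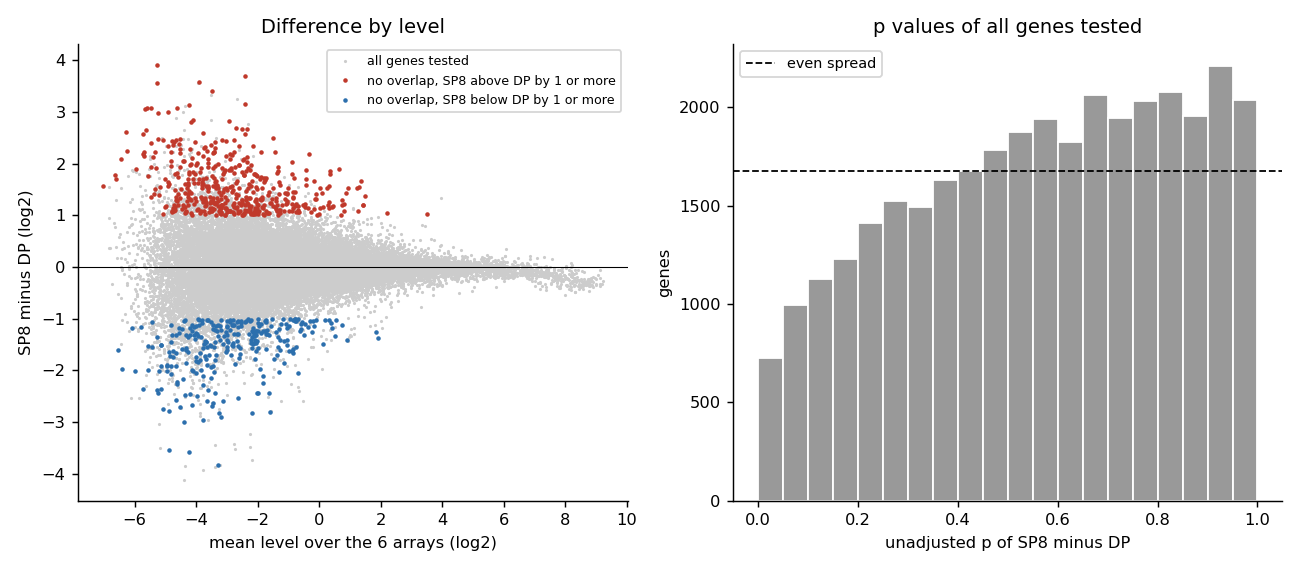
Left, SP8 minus DP (log2) against the mean level over the 6 arrays for each of 33552 genes, with the 461 genes in red and 275 in blue whose groups do not overlap and differ by 1 or more. Right, number of genes by unadjusted p in bins of 0.05, with the even spread as a dashed line; 725 genes fall in the first bin, below that line.

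Without regard to the test, all 3 SP8 arrays lay above all 3 DP arrays for 1601 genes (4.77%) and below them for 2031 (6.05%). Among these, differences of 1 or more were found for 461 genes higher and 275 genes lower in SP8. Some genes separate in this way through array scatter alone, so a lack of overlap is not by itself a sign of a difference. The median difference over all genes was -0.03. In the plot of difference by level, the large differences lie at dim probes: with genes split into 4 bins of equal size by mean level, in the dimmest bin 270 genes were higher and 168 lower by 1 or more with no overlap, and in the brightest bin 17 and 4 were.

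The genes that define the sort were looked at first. Cd8a, which encodes the CD8 alpha chain, has 2 probes on the array, shown here because they gave different results. The first 30 of each probe's 60 bases are printed 5′ to 3′ in lower case, with no part marked; coordinates are mm9, plus strand.
Cd8a upstream probe, chr6:71323885-71323944: tctcaccctgaacaagttcagcaaggaaaa
Cd8a downstream probe, chr6:71328911-71328970: cctgaaggaactaagagtcacccatggtcc

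The upstream Cd8a probe read -0.46, -0.70 and -0.13 on SP8 13, 14 and 15, against -2.70, -1.43 and -2.95 on DP 2, 3 and 3A. All SP8 arrays were above all DP arrays, by 1.93 ± 0.90 (SE, n = 3 each), with an unadjusted limma p of 0.0449 and an adjusted p of 0.9999 over every probe. The same probe averaged -4.35 ± 1.15 in SP4 and -3.41 ± 0.85 in DN3 (SD, n = 3 each), so the order was SP8, DP, DN3, SP4, in which DP and DN3 overlapped, as did DN3 and SP4. The downstream probe, which is the brighter one and stood for the gene in the test, averaged -0.95 ± 0.44 in SP8 and -1.06 ± 0.38 in DP (SD, n = 3 each), and the arrays overlapped. Cd8b1, the CD8 beta chain, differed by 0.02 ± 0.47 with overlapping arrays, or by -0.99 ± 0.72 with slide as a block.

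Loss of Cd4 transcript, which accompanies the SP8 stage, was not seen. The brightest Cd4 probe read 3.39, 3.46 and 3.33 on SP8 13, 14 and 15, against 3.66, 3.42 and 3.35 on DP 2, 3 and 3A, a difference of -0.08 ± 0.15 with overlap. It averaged 3.57 in SP4 and 3.47 in DN3, a stage named for lacking CD4, so this probe did not separate the stages that carry CD4 from those that lack it; the second Cd4 probe also overlapped between SP8 and DP. Of the transcription factors of the lineage choice, Runx3 differed by 0.04 ± 0.27 and Zbtb7b by -0.13 ± 0.18, each less than its error; Gata3, described below, differed by more. Cd3e, a signalling chain of the receptor complex, differed by -0.04 ± 0.13. The tested probes of Cd8a, Cd8b1, Cd4, Runx3 and Zbtb7b thus did not separate SP8 from DP. The upstream Cd8a probe did, but it was singled out after its values were seen and did not pass the test.

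**Figure D2:**
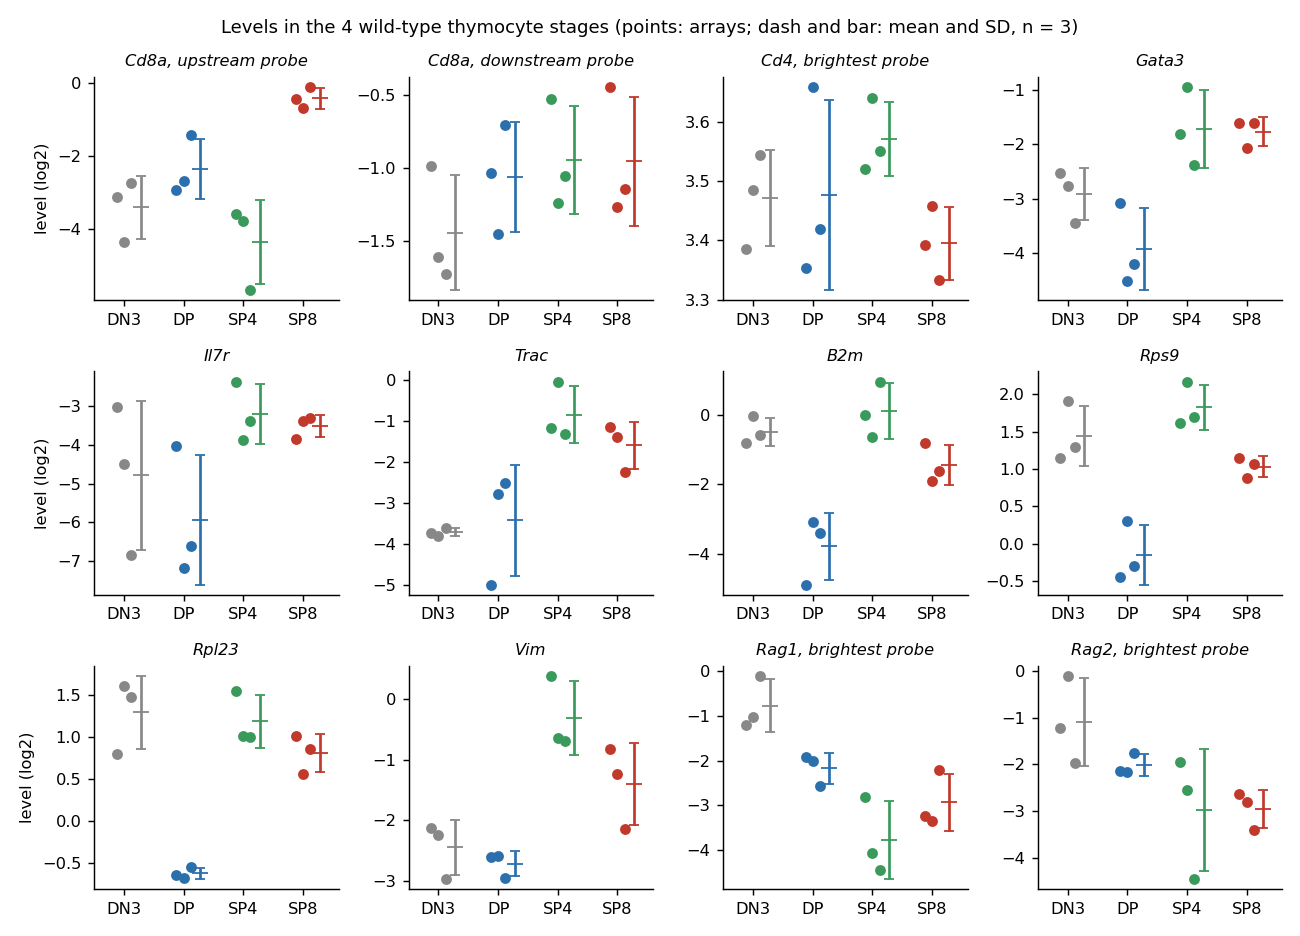
Levels (log2, relative to the 75th percentile of the array) of 12 probes in DN3, DP, SP4 and SP8 thymocytes, each point 1 array, with mean and SD of 3 arrays. The upstream Cd8a probe is highest in SP8, whereas Rps9, Rpl23 and B2m are lowest in DP; axes differ between panels.

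The recombinase genes Rag1 and Rag2 were measured lower in SP8 than in DP, within the spread, while the V(D)J recombination list as a whole had 7 of 13 members higher, with a median of 0.12 that was -0.10 with slide as a block. Rag1 read -3.24, -3.35 and -2.21 on SP8 13, 14 and 15, against -2.02, -2.57 and -1.92 on DP 2, 3 and 3A. The difference was -0.76 ± 0.66, and SP8 15 lay among the DP arrays; the second Rag1 probe differed by -1.43, and with slide as a block the tested one by -0.41. Rag2 read -2.63, -2.79 and -3.40 on SP8 13, 14 and 15, against -2.15, -1.75 and -2.13 on DP 2, 3 and 3A, with no overlap. Its difference of -0.93 ± 1.49 had an unadjusted limma p of 0.541 with the spread taken from all 8 groups, and it turned to 1.09 ± 2.25 with slide as a block. Dntt, the polymerase that adds bases at the joins, differed by -0.22 ± 0.15.

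In the list of DP stage genes 3 of 16 tested members were higher in SP8 and 13 lower, 0 with no overlap higher and 1 lower (Rag2; 6.25%, against 6.05% of all genes), with a median difference of -0.21, against -0.03 over all genes. With slide as a block that median was -0.07, against 0.06 over all genes. Its lowest member was Satb1, a chromatin organiser of DP cells, at 0.22, -0.49 and -6.48 on SP8 13, 14 and 15, against -0.89, -0.91 and -0.57 on DP 2, 3 and 3A. That difference, -1.46 ± 1.14, rests on SP8 15: without it, it was 0.65. Arpp21 differed by -0.20 ± 0.17 and Ptcra, the pre-TCR alpha chain, by -0.06 ± 0.22.

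Of 21 tested genes of maturation and egress 16 were higher in SP8, 2 of them with no overlap (9.52%, against 4.77% of all genes), and the median difference was 0.23, against -0.03 over all genes; with slide as a block it was 0.11, against 0.06. Il7r, the IL-7 receptor alpha chain, read -3.84, -3.39 and -3.31 on SP8 13, 14 and 15, against -7.17, -6.60 and -4.02 on DP 2, 3 and 3A. It was well above background on 3 SP8 arrays and on 1 DP array, and differed by 2.42 ± 1.09 with an unadjusted limma p of 0.0395. With normexp background correction the difference was 0.74, and with slide as a block 3.70. SP4 averaged -3.20 and DN3 -4.78, with overlap between SP8 and each of them. Coro1a, an actin regulator needed for egress, read -0.76, -1.42 and -1.06 on the SP8 arrays against -1.63, -1.60 and -1.63 on DP 2, 3 and 3A, with no overlap and a difference of 0.54 ± 0.31; with slide as a block it was -0.22.

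Other genes of late maturation overlapped between the groups. Cd52, a glycoprotein of mature lymphocytes, differed by 0.95 ± 0.68 (0.57 without DP 3), Klf2, which drives S1pr1, by 0.64 ± 0.69, and Ms4a4b by 0.62 ± 0.43 (-0.02 with slide as a block). The Ms4a4b probe with the lowest GC share gave 2.33, so the size of its difference depends on the probe. S1pr1, the receptor for exit from the thymus, differed by 0.12 ± 1.29 and was well above background on 1 SP8 and 2 DP arrays. Ccr7, a homing receptor, differed by -0.08 ± 0.34, also within its error.

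Signs of T cell receptor signalling showed no common direction. Of 25 tested genes of positive selection, 15 were higher, with a median difference of 0.04 that was -0.11 with slide as a block. None had no overlap higher (0%, against 4.77% of all genes) and 1 did lower (4.00%, against 6.05%). The lower one was Junb, an AP-1 subunit, at -0.67 ± 0.35. Cd69, an early activation antigen, differed by 0.51 ± 1.05 and was well above background on 2 arrays of each group, and Cd5, whose level follows receptor signal strength, differed by 0.20 ± 0.29. Among 24 TCR signalling genes 11 were higher, with a median of -0.02; Cd247, the CD3 zeta chain, was higher with no overlap by 0.85 ± 0.58, and by 0.10 with slide as a block. The ubiquitin ligase Cblb was higher with no overlap by 0.60 ± 0.42, and by 0.34 without DP 3. These were 8.33% of the list, against 4.77% of all genes.

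Tox, a factor needed for selected thymocytes to mature, also has a pair of probes that disagreed, printed in the same way (mm9, minus strand).
Tox tested probe, chr4:6614755-6614814: tccaagtcctgttatggataaagctgccaa
Tox second probe, chr4:6613551-6613610: gagagctcaaactttactgtcttgatactg

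The second Tox probe read -3.17, -2.93 and -2.46 on SP8 13, 14 and 15, against -5.83, -4.02 and -7.15 on DP 2, 3 and 3A. The arrays did not overlap and the difference was 2.81 ± 1.30, with this probe well above background on 3 SP8 arrays and 1 DP array. The tested probe, which is brighter, differed by -0.34 ± 0.29 with overlap, so the direction for Tox depends on the probe.

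Gata3 had one of the strongest differences of any gene and the strongest among the transcription factors listed. This zinc-finger factor acts throughout T cell development and is best known for promoting the CD4 lineage. Its single probe (chr2:9779551-9779610, mm9, minus strand, first 30 bases) is:
Gata3 probe: ttaaggaatatagggggattaaagtatgga

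Gata3 read -1.62, -2.08 and -1.61 on SP8 13, 14 and 15, against -4.51, -4.20 and -3.07 on DP 2, 3 and 3A. All SP8 arrays lay above all DP arrays, with a difference of 2.16 ± 0.51 and an unadjusted limma p of 0.000518. SP4 averaged -1.72 ± 0.72, and DN3 averaged -2.91 ± 0.48 (SD, n = 3 each); SP8 minus SP4 was -0.05 ± 0.51. Over the alternatives tried, the difference from DP lay between 1.39 and 3.12 and the smallest adjusted p was 0.30. In the CD4 lineage list, Gata3 included, 6 of 13 members were higher, with a median of -0.08 that was 0.26 with slide as a block; Gata3 was its only member higher with no overlap (7.69%, against 4.77% of all genes). Tcf7, the factor TCF-1 that acts early in both lineages, differed by -1.32 ± 1.05, with 3 SP8 values spread from -3.33 to -0.92.

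Of 18 tested genes of the CD8 lineage 11 were higher, with a median of 0.07. Il7r and Il2rb were higher with no overlap, 2 of 18 (11.1%, against 4.77% of all genes). Il2rb, the beta chain of the IL-2 and IL-15 receptors, read -0.18, 0.55 and -0.14 on SP8 13, 14 and 15, against -0.51, -0.32 and -0.48 on DP 2, 3 and 3A, a difference of 0.51 ± 0.28 that was 0.27 without SP8 14. Eomes, a factor of CD8 effector and memory cells, differed by -0.36 ± 0.45.

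Receptors that share the common gamma chain included both of these and Il21r. Il21r read -1.16, -0.79 and -1.51 on SP8 13, 14 and 15, against -3.18, -1.64 and -1.79 on DP 2, 3 and 3A, with no overlap and a difference of 1.05 ± 0.41; without DP 2 it was 0.56. In this list 9 of 16 members were higher, 3 with no overlap (18.8%, against 4.77% of all genes), and the median was 0.10, or -0.07 with slide as a block. Jak3, the kinase bound to the shared chain, differed by -0.35 ± 0.22. Cytotoxic effector genes, which naive cells do not yet use, had 9 of 24 members higher and a median of -0.05. Of this list 12.5% were higher with no overlap and 4.17% lower, against 4.77% and 6.05% of all genes. Klrk1, the NKG2D receptor, was higher with no overlap by 0.86 ± 0.55 (0.50 without DP 3), and Fasl, a death ligand, lower with no overlap at -0.30 ± 0.21.

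At the T cell receptor alpha constant gene, all SP8 arrays lay above all DP arrays. Trac (chr14:54841802-54842701, mm9, plus strand, a span longer than the probe) read -1.16, -1.39 and -2.25 on SP8 13, 14 and 15, against -2.79, -2.51 and -4.99 on DP 2, 3 and 3A, a difference of 1.83 ± 1.17 that was 1.05 without DP 3A. SP4 averaged -0.85 and DN3, which has not rearranged the alpha locus, -3.72. A second feature, named Tcra in the files, lies elsewhere (chr14:54431211-54431270, mm9), away from the constant gene, and differed by 0.28 ± 0.16. The beta constant genes differed by less than their errors, Trbc1 at -0.01 ± 0.38 and Trbc2 at 0.18 ± 0.63, with overlapping arrays.

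In the MHC class I list 10 of 16 members were higher, and the median was 0.09, or -0.07 with slide as a block. No overlap was found for 2 higher (12.5%, against 4.77% of all genes) and 1 lower (6.25%, against 6.05%). B2m, the light chain of MHC class I, read -0.81, -1.90 and -1.61 on SP8 13, 14 and 15, against -3.08, -3.39 and -4.87 on DP 2, 3 and 3A. Its difference was 2.34 ± 1.33, or 2.97 ± 2.05 with slide as a block. All DP arrays lay below the other 9 wild-type thymocyte arrays, and DN3 7, on the same slide as DP, read -0.82. Pdia3, a chaperone of the peptide-loading complex, had the same order, at -0.77, -1.87 and -1.35 in SP8, against -2.41, -2.91 and -4.75 on DP 2, 3 and 3A (2.02 ± 1.10, or 1.33 without DP 3A). Psmb9, an immunoproteasome subunit, was lower in SP8 with no overlap by a small margin (-0.18 ± 0.21).

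Ribosomal protein genes were mostly higher in SP8. Of 32 members 24 were higher in SP8, 7 with no overlap (21.9%, against 4.77% of all genes) and 0 lower, and the median difference was 0.23. The mean level of the list was 1.23 to 1.27 on the SP8 arrays, against 0.954 to 1.001 on the DP arrays. The largest difference was that of Rpl23, a large-subunit protein, at 1.01, 0.56 and 0.87 on SP8 13, 14 and 15, against -0.67, -0.55 and -0.64 on DP 2, 3 and 3A (1.44 ± 0.42, unadjusted limma p 0.00334). With the mean of all its probes the difference of Rpl23 was 0.77. Rps9, a small-subunit protein, read 1.14, 0.87 and 1.07 in SP8, against 0.30, -0.30 and -0.45 on DP 2, 3 and 3A (1.18 ± 0.34, unadjusted limma p 0.00269). For both genes DP lay below all 9 other wild-type arrays, including DN3 7 on the DP slide at 0.80 for Rpl23 and 1.14 for Rps9.

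The lean of the ribosomal list did not hold with slide in the fit. Its median was 0.21 to 0.25 with normexp correction, quantile or median scaling and the deposited matrix, and -0.01 with slide as a fixed block. In that fit DN3 was the only group with arrays on both the DP and the SP8 slide. Slide 1 joined them indirectly, through SP4 11 and an array titled tg DP 4, whose groups also lay on those slides. With slide as a fixed block Rpl23 was 0.71 ± 0.67 and Rps9 1.11 ± 0.58. Probes for ribosomal proteins can also bind near-identical copies elsewhere in the genome, so the values of single members are uncertain.

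The remaining lists are given by their counts and medians, beside -0.03 over all genes. The cell cycle list had 13 of 30 members higher and a median of -0.07 over all 30. Its only members with no overlap were Top2a, which untangles replicated DNA, at 0.93 ± 0.79, and Mcm5, a subunit of the replicative helicase, at -0.26. Each was 3.33% of the list, against 4.77% of all genes higher and 6.05% lower. Interferon response genes had 9 of 25 higher and a median of -0.15, or 0.11 with slide as a block. In the Gimap family of lymphocyte GTPases 6 of 8 were higher, while Gimap8 was lower with no overlap at -1.05 ± 0.41, or -0.60 without SP8 15. Gimap8 alone was 12.5% of its list, against 6.05% of all genes. Of 20 NF-kappaB and TNF receptor family genes 14 were higher, among them Nfkb1 (0.35 ± 0.15) and its inhibitor Nfkbie (1.06 ± 0.63) with no overlap (10.0% of the list, against 4.77% of all genes). The Nfkb1 probe with the lowest GC share gave 0.04. Bcl2, the survival factor, differed by 0.01 ± 0.42, or by 0.98 ± 0.41 with slide as a block. Medians lay between -0.04 and 0.12 for V(D)J recombination (7 of 13 higher), E and Id proteins (5 of 8), integrins and adhesion (12 of 19), Notch and pre-TCR (5 of 11) and glycolysis (8 of 18).

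**Figure D3:**
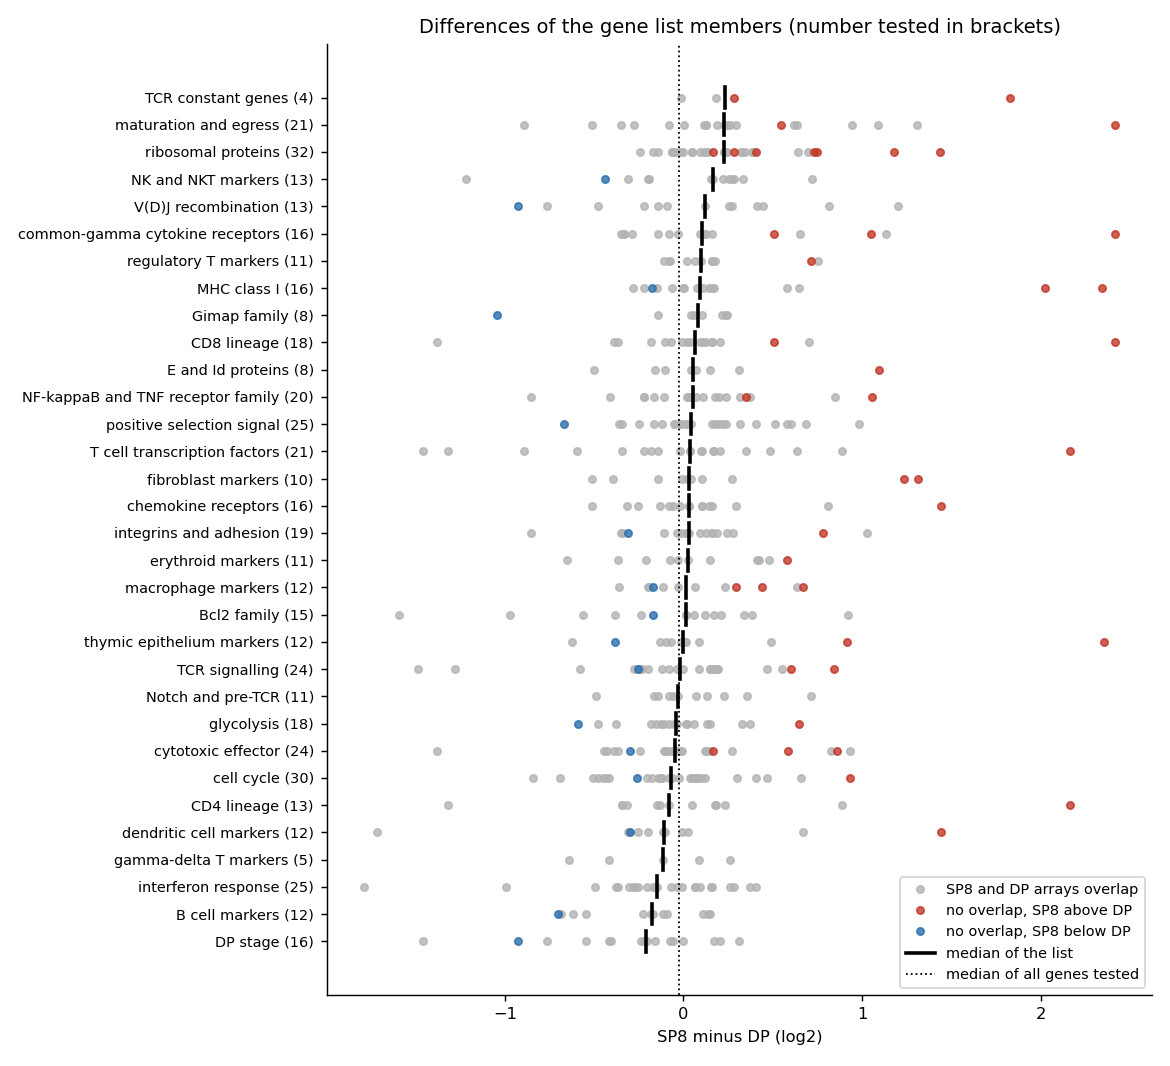
SP8 minus DP (log2) of each tested member of 32 gene lists, sorted by list median (black bar); red and blue points are members whose 3 SP8 arrays all lie above or below the 3 DP arrays, and the dotted line is the median of all genes. Medians run from 0.23 (TCR constant, maturation and ribosomal genes) to -0.21 (DP stage genes).

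The genes with the strongest differences were taken next, by the largest statistic among named genes with no overlap and a difference of 1 or more, 12 in each direction. None passed, and their unadjusted limma p lay between 0.000234 and 0.00447. Normexp background correction gave smaller differences for the dim ones, such as 1.84 for Rtn3, 1.75 for Ovca2, 0.39 for Olfr730 and -0.78 for Golga2. The strongest was Rtn3, a membrane-shaping protein of the endoplasmic reticulum, at -1.44, -1.12 and -2.04 on SP8 13, 14 and 15, against -4.13, -4.06 and -4.87 on DP 2, 3 and 3A (2.82 ± 0.61). Rtn3 was lowest in DP among the 4 stages, with every SP4 and DN3 array above every DP array, as were Rps9 and Rpl23.

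For other genes of this set, every SP8 array lay above all 9 arrays of the other stages. Furin, a protease that cleaves proproteins, read -2.06, -2.94 and -1.95 on SP8 13, 14 and 15, against -4.90, -4.89 and -3.83 on DP 2, 3 and 3A (2.22 ± 0.62), and averaged -3.86 in SP4 and -4.09 in DN3. Ovca2 read -2.67, -0.999 and -2.73 in SP8, against -6.12, -4.95 and -6.04 on DP 2, 3 and 3A (3.57 ± 0.86), and was well above background on 1 DP array. Gcnt3, a glycan-branching enzyme, and Rspo1, a secreted enhancer of Wnt signalling, followed it, at 2.46 ± 0.72 and 1.87 ± 0.48. Olfr730, an olfactory receptor gene, also had this pattern and was not well above background on any DP array. On the processed signal it was at least 2.12-fold higher in SP8. That bound did not hold with normexp correction, where the log2 difference was 0.39. This set was chosen for SP8 lying above DP, so only its place against SP4 and DN3 was open. Across all genes with complete values, 149 of 33471 had the SP8 arrays above all 9 other wild-type thymocyte arrays and 80 below. For DP these counts were 247 and 196, for SP4 302 and 617, and for DN3 100 and 70. The pattern with SP8 highest was thus less frequent than that with DP or SP4 highest. Array scatter alone puts some genes in this pattern, so in a single gene it is not by itself a sign of a difference.

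Spdya, a cyclin-dependent kinase activator known from meiosis, and Prss21, a testis serine protease, completed the higher set at 1.44 ± 0.40 and 1.96 ± 0.57. The Spdya direction depends on the probe, since its probe with the lowest GC share gave -1.34.

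Among the 12 lower genes, the largest difference was that of Pmch, the melanin-concentrating hormone precursor. It read -4.71, -3.94 and -6.94 on SP8 13, 14 and 15, against -0.35, -1.95 and -1.78 on DP 2, 3 and 3A (-3.84 ± 1.17), with 2 of 3 SP8 arrays well above background. Pmch was highest in DP among the 4 stages, as were Calca, the calcitonin gene (-2.06 ± 0.62), and Akr7a5, an aldo-keto reductase (-1.11 ± 0.33). The Calca probe with the lowest GC share gave -0.34, and Pmch was -2.03 with slide as a block. Golga2, a Golgi matrix protein, read -4.18, -4.82 and -7.33 in SP8, against -3.44, -2.70 and -2.80 on DP 2, 3 and 3A (-2.46 ± 0.75); here, as for Pmch, SP8 15 was the lowest array, and without it the difference of Golga2 was -1.52.

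Zcwpw1, a reader of histone methylation (-2.44 ± 0.74), Lmln, a metallopeptidase (-2.15 ± 0.61), Cnot3, a subunit of the CCR4-NOT deadenylase (-1.53 ± 0.42), Sppl2b, an intramembrane protease (-1.36 ± 0.39), and Tdrp (-1.14 ± 0.29) were also lower. Cst6, a protease inhibitor (-1.76 ± 0.54), was 0.04 with slide as a block. Sec14l3, a lipid-binding protein (-1.11 ± 0.34), had SP8 below all 9 other wild-type arrays, but its probe with the lowest GC share gave 0.93. The non-coding Platr14 (-1.73 ± 0.52) was -1.06 without SP8 15. In all 12 of these genes SP8 15, the array that stood apart, was the lowest SP8 array.

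**Figure D4:**
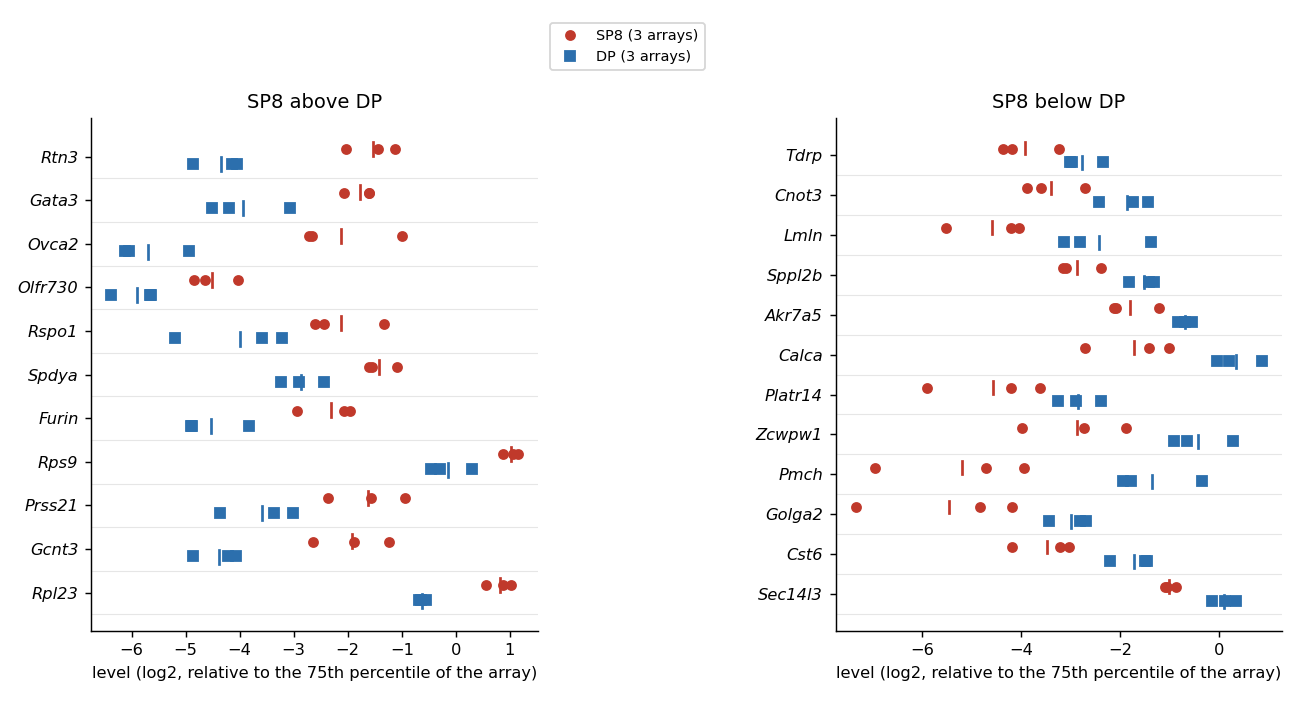
Levels (log2, relative to the 75th percentile of the array) on the 3 SP8 arrays (red circles) and the 3 DP arrays (blue squares) for 11 of the 12 genes with SP8 above DP (left) and the 12 with SP8 below DP (right), ordered by the test statistic; ticks are means. The groups do not overlap in any gene shown, by the rule that chose them, and none passed the test.

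Markers of other cell types that a thymocyte sort could hold were measured on the same arrays, and their part in the differences was not tested. Of 12 macrophage markers 6 were higher and 6 lower. With no overlap, 3 were higher, Cd68 (0.67 ± 0.23), C1qb (0.30 ± 0.14) and Adgre1 (0.44 ± 0.24), and 1 was lower, Fcgr1 (-0.17). This is 25.0% and 8.33% of the list, against 4.77% and 6.05% of all genes. C1qa and C1qc were lower with overlap, at -0.20 and -0.36. The list median was 0.02, and the mean level of the list was -0.53 to -0.25 on the SP8 arrays, against -0.60 to -0.28 on the DP arrays. For Cd68 and Adgre1 the probe with the lowest GC share gave -0.17 and -1.42. Of 12 thymic epithelium markers 6 were higher and 6 lower, with a list median of -0.001. Prss16, a protease of cortical epithelium, and Krt8 were higher with no overlap (2.36 ± 0.94 and 0.92 ± 0.51, 16.7% of the list, against 4.77% of all genes). Foxn1 was lower with no overlap (8.33%, against 6.05% of all genes). Prss16 was at -7.59 on DP 2, and without that array its difference was 0.90. The list mean was -0.57 to -0.16 in SP8, against -0.99 to -0.33 in DP. Foxn1 itself read -0.22, -0.13 and -0.03 in SP8, against 0.37, 0.22 and 0.17 on DP 2, 3 and 3A (-0.39 ± 0.25).

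Of 10 fibroblast markers 2 were higher with no overlap, Vim and Fn1 (20.0%, against 4.77% of all genes), with a list median of 0.03; without SP8 15 the difference of Fn1 was 0.59, against 1.23. Vim, an intermediate filament protein that lymphocytes also carry, read -0.83, -1.24 and -2.14 on SP8 13, 14 and 15, against -2.58, -2.95 and -2.61 on DP 2, 3 and 3A (1.31 ± 0.46, unadjusted limma p 0.0108), and averaged -0.32 in SP4. Of 12 dendritic cell markers 3 were higher and 9 lower, with a list median of -0.11. With no overlap, 1 was higher, the chemokine receptor Xcr1 (1.44 ± 0.60, or 0.85 without SP8 15), and 1 lower, Flt3 (-0.30 ± 0.14). Each was 8.33% of the list, against 4.77% and 6.05% of all genes. Of 12 B cell markers 3 were higher and 9 lower, with a list median of -0.18. Of 13 NK and NKT markers 8 were higher with a median of 0.16, or -0.28 with slide as a block, and of 5 gamma-delta T markers 2 with a median of -0.11. Regulatory T markers had 8 of 11 higher (median 0.10) and erythroid markers 6 of 11 (median 0.03). Some markers of other cell types were bright in both groups, such as the B cell gene Cd22 at 5.25 to 5.58 in SP8, against 5.15 to 5.38 in DP, and the myeloid integrin Itgam at 7.40 to 7.68 in SP8, against 7.71 to 8.05 in DP.

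The base composition of the probe went with the size of the differences. With genes split into 4 bins by the share of G and C in the probe, in the bin with the lowest share (15.0% to 38.3%), the median size of the difference was 0.29, with 253 genes higher and 130 lower by 1 or more with no overlap. In the bin with the highest share (46.7% to 91.7%) the median size was 0.14, with 26 higher and 29 lower. The median SE was 0.57 in the lowest bin and 0.27 in the highest. The probes of Gata3, Il7r, Trac and B2m lay in the lowest of these bins, and those of Runx3, Trbc1 and Trbc2 in the highest. Cd8a went the other way: its downstream probe, with overlapping arrays, had 38.3% and its upstream probe, with no overlap, 45.0%. The part of base composition in single differences was not tested.

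SP8 was set against SP4 to see which of the differences from DP were particular to the CD8 lineage. Of 33550 genes tested, 0 (0%) passed limma's adjusted threshold, with 1723 at an unadjusted p under 0.05 and a smallest adjusted p of 0.37. Nothing can therefore be called particular to SP8. The upstream Cd8a probe was higher in SP8 than in SP4 by 3.93 ± 0.90, with an adjusted p of 0.50 over every probe, while Gata3 (-0.05 ± 0.51) and Il7r (-0.31 ± 1.09) differed by less than their errors.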

How the data were processed

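Single-colour Cy3 arrays were read; per the file headers the deposited spot intensity (processed signal, background-subtracted) came from Feature Extraction 10.7.3.1 on design 028005, annotated on mm9. The authors also deposited a matrix of log2 values, whose columns rank exactly as the spots and have a median of 7.93 each; no source used here names its program. Per the labels' protocols, polyA RNA of sorted cells was amplified before hybridisation.

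From the intensity, 3671 control spots were left out and 3099 outlier-flagged values set to missing; log2 values were taken relative to the 75th percentile of each array. The brightest probe stood for each gene. Genes stayed in if some group had a probe of theirs well above background on all of its arrays, which left 33553 of 34787. Probe names were updated through RefSeq (26762 by accession, 3819 by symbol, 639 by synonym, 4 by description; 24457 kept the file's name). Exon and UTR positions are not used here.

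Groups were compared with limma 3.58.1 (R 4.3.3) on all 24 arrays, Benjamini-Hochberg adjusted over all genes at 0.05; the procedure was tested on simulated data. The number of arrays limits the precision. Members and lists were chosen with earlier results of these data known. Named genes were the 12 strongest in each direction with a gene symbol, no overlap and a difference of 1 or more, up to 4 strongest per list, and 20 fixed genes; a few of all these are not reported here, and the second probes, Mcm5 and the bright markers Cd22 and Itgam were singled out after their values were seen. Alternatives covered background correction, scaling, the deposited matrix, filters, arrays in the fit, slide as a block, array weights, the probe chosen and leaving out each array.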

Additional observations from a re-analysis of the deposited data

How the results depend on the processing

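For SP8 minus DP, limma called 0 genes in every alternative run. The smallest adjusted p came closest with array weights (0.0636), normexp background correction (0.13) and without the 3 arrays of other groups that stood apart (0.15). Genes at an unadjusted p under 0.05 numbered 493 with arrays of 1 title number averaged, 1726 on the 6 arrays alone and 2069 with array weights, against 725; leaving out 1 array gave 556 (without SP8 15) to 1040 (without SP8 13). With every probe on its own, chosen after seeing the data, 0 of 55680 probes passed and 1330 had an unadjusted p under 0.05. For SP8 minus SP4, 1 gene passed without the 3 arrays that stood apart, an unnamed feature higher in SP8, and the cause was not tested; leaving out 1 array gave 0 to 2, the 2 being Prdx6b and Rsph6a without SP4 10, and the other alternatives gave 0. Of 152 named genes 98 kept their sign in all alternatives run, and of 32 lists 6 did: DP stage, maturation and egress, TCR constant genes, chemokine receptors, B cell markers and dendritic cell markers. Genes with no overlap numbered 1601 higher and 2031 lower, and more when any 1 array was left out, since fewer arrays overlap less often. Without SP8 15 they numbered 4072 higher and 3361 lower. Leaving out any other of the 6 arrays gave 2859 to 3171 higher and 3440 to 4839 lower. Only without SP8 15 did higher genes outnumber lower ones, so the more frequent direction depended on that array. Dim probes limit the largest differences: with normexp Ovca2 was 1.75. No paired analysis was possible because SP8, DP and SP4 share no replicate numbers.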
